A study of Homo sapiens with 8 samples.

Results

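The binding sites of overexpressed HoxC5 and overexpressed Pbx4 were compared as 2 lists of ChIP-Seq peaks from PC-3 cells, an established human prostate cancer line. Members were the peaks of both lists on chromosomes 1 to 22 and X, and a peak was called shared when it overlapped a peak of the other list by at least 1 bp. There were 220720 such peaks, 67169 of HoxC5 and 153551 of Pbx4, out of 223511 in the 4 peak lists of the series. The HoxC5 library came from PC-3 cells that overexpressed Flag-tagged HoxC5 and was precipitated with an antibody to HoxC5. The Pbx4 library came from PC-3 cells that overexpressed Flag-tagged Pbx4 and was precipitated with an antibody to Pbx4. The antibodies recognise the factors and not the tag, so protein from the cells' own genes could be precipitated too. Whether the cells were clones or pools, and how far each factor exceeded its own level, is not given in the sources used here. The other 2 peak lists are of HoxC5 in unmodified PC-3 cells (genotype given as control), and the 4 input libraries were not used. Each overexpressed condition has 1 library, so no difference between the lists has a replicate check, and the factor, its antibody, the cells and the library cannot be told apart. All comparisons are therefore descriptions with no test, and the 95% intervals (exact Clopper-Pearson) cover counting error only.

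HoxC5 belongs to the Hox family of homeodomain proteins, which set regional identity in the embryo and bind short AT-rich DNA words on their own. Pbx4 belongs to the TALE homeodomain proteins, a group named for extra residues in a loop of the homeodomain, that also holds the Meis and PKNOX (Prep) proteins. Hox and Pbx proteins can bind DNA side by side on a joint word such as TGATTGAT, and Pbx with Meis or PKNOX proteins on a word such as TGATTGACA. AP-1, a dimer of Fos, Jun and related proteins, binds the word TGAGTCA, which reads as TGACTCA on the other strand, and is abundant at enhancers of epithelial cancer cells.

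Windows of 30 bases are shown around a chosen word at strong shared sites, taking the word nearest the HoxC5 summit, the position of highest signal. Shared sites were ordered by the sum of their ranks by q in both lists. Of the sites that held the AP-1 word within 50 bp of the HoxC5 summit, 4 from the head of this order are shown 5′ to 3′ on the plus strand of hg19, with the AP-1 word in capitals.
Intron, nearest TSS of KCNMA1-AS2, chr10:78923905-78923934: cagactccctcTGACTCAgcagcctgatgc
NRP1 promoter, chr10:33553333-33553362: ccaagggtgagTGACTCAttctgagtggtg
Intron, nearest TSS of PARD3, chr10:34988072-34988101: cggaggggtccTGACTCAacagtcagctat
Intron, nearest TSS of KCNMA1-AS2, another site, chr10:78920649-78920678: attcatgcaggTGACTCAacaactcataat
These places were 4, 7, 8 and 12 in the order of shared sites, and all 4 also overlapped a peak of HoxC5 in unmodified cells. The fold enrichment (ratio to the local background, as the peak caller gave it) was between 8.41 and 16.8 in the HoxC5 list and between 8.60 and 15.9 in the Pbx4 list. NRP1 encodes neuropilin 1, a co-receptor of VEGF and semaphorins, and PARD3 encodes a cell polarity protein. The sites nearest the TSS of KCNMA1-AS2 lie within the bounds of KCNMA1, a potassium channel gene.

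From the head of the same order, 4 sites with a Hox-Pbx word are shown, with that word in capitals. Each of the words sought here was under 0.831 to 0.974% of all shared HoxC5 summits, against 26.7% for the AP-1 word.
Intergenic, upstream of TGM2, chr20:36812774-36812803: ccccctgacatTGATTTATtacagtctctg
Intergenic, chr1:201430392-201430421: caggcagacgcATAAATCAgcaatcacaag
Intron, nearest TSS of PRKG1, chr10:53222315-53222344: caaaaaccagaTGATTGATtgcttctcaaa
Intergenic, chr1:173238779-173238808: ggacaaagggaTGATTAATgtcctgggtgg
The site 17792 bp upstream of TGM2, a transglutaminase gene, was 5 in the order of all HoxC5 peaks by q with a fold enrichment of 50.9, and the Pbx4 peak there had 15.04. Its window holds TGATTTAT, the window at chr1:201430392-201430421 holds the same word on the other strand, and the other windows hold TGATTGAT and TGATTAAT. At these 4 sites the HoxC5 fold enrichment was between 12.9 and 50.9 and that of Pbx4 between 15.04 and 18.5. The summits there lay 10 to 24 bp apart. Of the 4, only the site with the TSS of PRKG1 nearest overlapped a peak of HoxC5 in unmodified cells.

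The lists differed in length and in where they ended. All 67169 HoxC5 peaks had a q value of at most 0.01, while 151450 of the 153551 Pbx4 peaks did. Read totals are not part of the peak lists, and the study's methods state depth only as an average over libraries, so the depth behind each list is unknown. The median fold enrichment was 6.17 (quartiles 4.89 and 8.07) for HoxC5 and 6.36 (4.89 and 8.95) for Pbx4.

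Most HoxC5 peaks lay on Pbx4 peaks, and most Pbx4 peaks lay away from HoxC5. Of the HoxC5 peaks, 45474 overlapped a Pbx4 peak (67.7%, 67.3 to 68.1%) and 21695 did not. Of the Pbx4 peaks, 43799 overlapped a HoxC5 peak (28.5%, 28.3 to 28.8%) and 109752 did not. These shares depend on the lengths of the lists: with the Pbx4 list shortened to its 67169 peaks of lowest q, 47.7% of HoxC5 peaks and 45.1% of Pbx4 peaks were shared. With an overlap of at least 50% of both intervals, the shares were 37.2% and 16.3%. A shared Pbx4 peak held 1 HoxC5 peak in 95.7% of cases, and 85 held 3 or more. HoxC5-only peaks were not far from Pbx4, since their median distance to the nearest Pbx4 summit was 3586 bp, and 20.3% had a Pbx4 summit within 1 kb. Pbx4-only peaks were a median of 10093 bp from the nearest HoxC5 summit, and 8.73% had such a summit within 1 kb.

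Stronger peaks of either factor were more often shared. In the decile of HoxC5 peaks with the lowest q values, 92.4% (91.7 to 93.0%) overlapped a Pbx4 peak, against 51.1% (49.9 to 52.3%) in the decile with the highest. For Pbx4 the same shares were 70.2% (69.5 to 70.9%) and 13.1% (12.6 to 13.7%). At the 45474 shared sites, the fold enrichments of the overlapping peaks had a Spearman correlation of 0.158 and the −log10 q values of 0.269, with no p given since neighbouring sites share a library and are not replicates. The order of sites by strength thus differed between the lists.

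**Figure D1:**
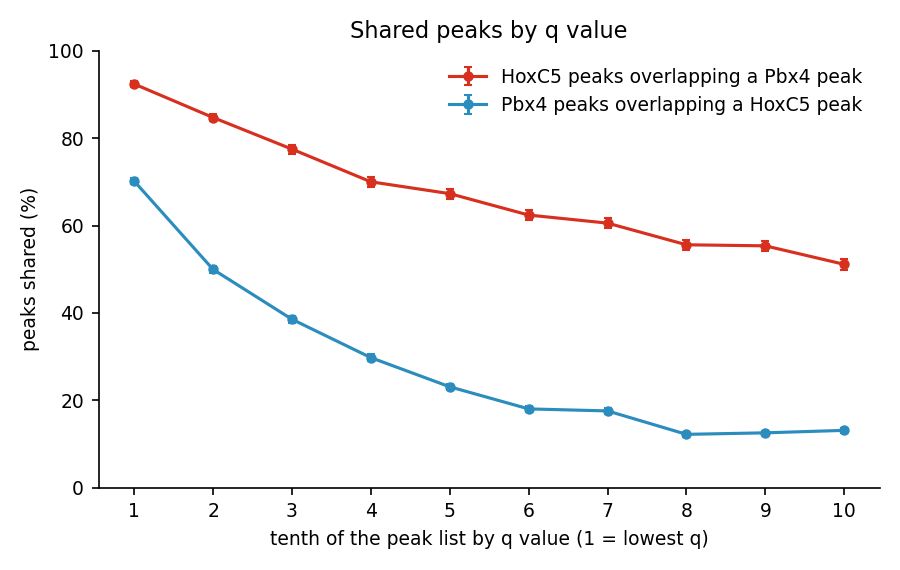
Share of HoxC5 peaks (red) and Pbx4 peaks (blue) that overlap a peak of the other factor (y axis, %), by decile of each list ordered by q value (x axis, 1 is the lowest q), with 95% counting intervals. The share goes from 92.4% to 51.1% for HoxC5 and from 70.2% to 13.1% for Pbx4.

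Pbx4 peaks were wider than HoxC5 peaks, and shared peaks wider than unshared ones. The median width was 245 bp for shared and 197 bp for HoxC5-only peaks, and 414 bp for shared and 278 bp for Pbx4-only peaks. Pbx4 peaks of 1 kb or more numbered 2519, of which 77.8% (76.1 to 79.4%) were shared, against 10.7% (10.3 to 11.1%) of Pbx4 peaks narrower than 200 bp. HoxC5 peaks of 1 kb or more numbered 305, of which 85.2% (80.8 to 89.0%) were shared. A wide interval can overlap another by its length alone, and the part of width in these shares was not tested.

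Promoters separated the HoxC5-only peaks from all others. A summit was put in the promoter class when it lay within 1 kb of any annotated transcription start site (TSS), and otherwise in exon, intron or intergenic. Of the HoxC5-only summits, 47.6% (46.9 to 48.3%) were in promoters, compared with 18.6% (18.2 to 18.9%) of shared HoxC5 summits, 10.1% (9.96 to 10.3%) of Pbx4-only summits and 7.52% of the assembled bases. Introns held 29.3% of HoxC5-only, 49.8% of shared HoxC5 and 54.9% of Pbx4-only summits, against 52.4% of bases. Seen from the class, 45.0% of HoxC5 peaks in promoters were shared, against 78.1% in introns and 74.6% between genes. Pbx4 showed the opposite order, with 42.4% of its promoter peaks shared against 26.6% in introns and 26.3% between genes. The difference between the HoxC5 groups was present at every level of q: in the quintile of HoxC5 peaks with the lowest q, 44.6% (42.1 to 47.2%) of HoxC5-only and 17.5% (16.9 to 18.2%) of shared summits were in promoters, and in the quintile with the highest q the shares were 53.8% and 20.5%. For shared Pbx4 peaks the promoter share went from 11.8% in the quintile with the lowest q to 39.7% in the quintile with the highest, while Pbx4-only peaks went from 9.23% to 11.3%. Promoters of protein-coding transcripts alone gave 39.8% for HoxC5-only, 11.4% for shared HoxC5 and 4.26% for Pbx4-only summits.

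Within 100 bp of a TSS were 25.1% of HoxC5-only, 7.25% of shared HoxC5 and 1.84% of Pbx4-only summits. The median HoxC5-only promoter summit lay 13 bp upstream of the TSS, with quartiles at -98 and 77 bp. Shared HoxC5 promoter summits lay a median of 28 bp upstream, with quartiles at -187 and 126 bp. Pbx4-only promoter summits were spread over the whole window, with quartiles at -379 and 467 bp. The nearest TSS was a median of 1.33 kb from HoxC5-only, 7.98 kb from shared HoxC5 and 9.97 kb from Pbx4-only summits. Of the summits, 6.41% of HoxC5-only, 9.90% of shared HoxC5 and 11.7% of Pbx4-only summits were over 50 kb from any TSS.

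**Figure D2:**
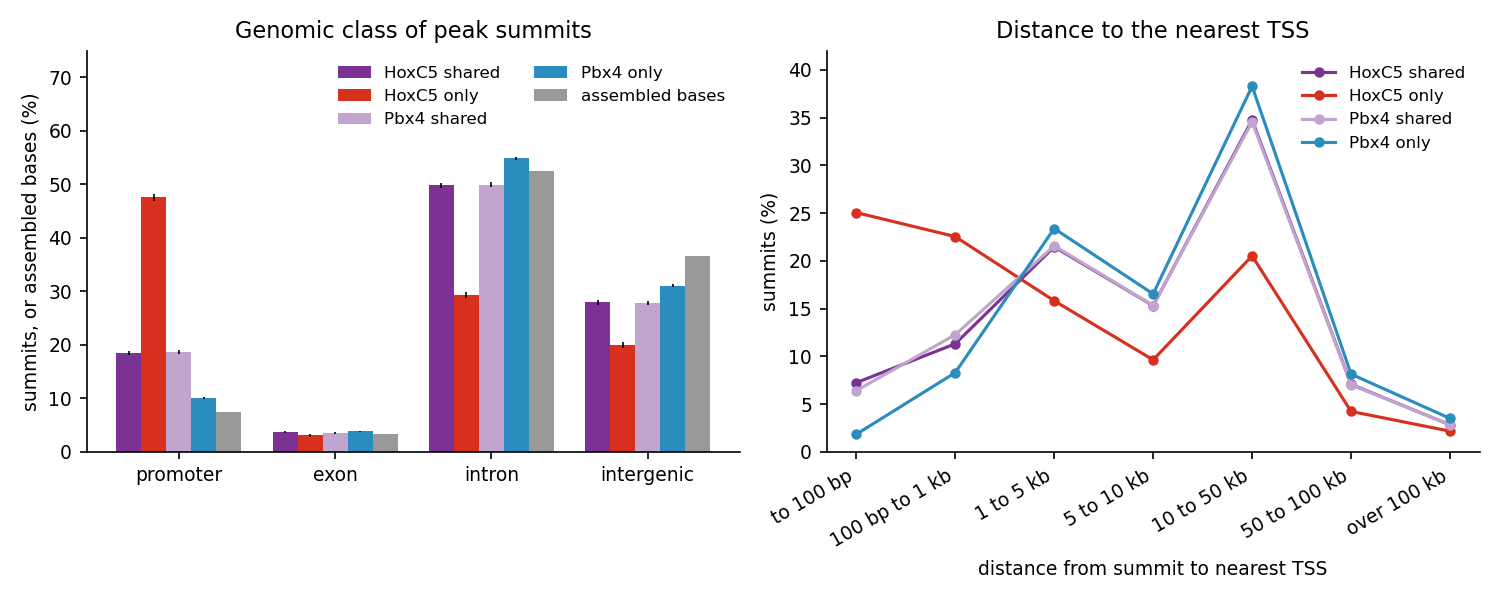
Left, percent of summits (y axis) in each genomic class for the 4 groups of peaks, with 95% counting intervals as black lines, beside the percent of assembled bases (grey). Right, percent of summits by distance to the nearest TSS. HoxC5-only peaks (red) have 47.6% of summits in promoters and 25.1% within 100 bp of a TSS, while Pbx4-only peaks (blue) have 10.1% and 1.84%.

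Where both factors had a peak, the summits lay close together. The overlap rule and the pairing with the nearest summit limit this distance, and no reference for overlapping peaks of these widths was made. The median distance between the HoxC5 and Pbx4 summits at the 45474 shared sites was 50 bp (interval of the median 49 to 51 bp, quartiles 22 and 103 bp), and 74.2% were within 100 bp of each other. Chromatin fragments after sonication were longer than this median. The summits were closer at the strongest sites, with a median of 39 bp over the 5000 sites of lowest rank sum, than at the weakest, with 63 bp over the 5000 of highest. They were further apart in promoters (65 bp) than in introns (47 bp) or between genes (49.5 bp). Width moved with this distance too: the median was 38 bp where the wider peak was under 300 bp and 124 bp where it spanned 1 kb or more. Of the 4545 shared sites within 200 bp of a TSS, 17 had both summits at the same position. At the rest, the Pbx4 summit was downstream of the HoxC5 summit, in the direction of transcription, in 42.6% (41.2 to 44.1%). Over all 4545, the median place of the Pbx4 summit was 18 bp upstream.

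**Figure D3:**
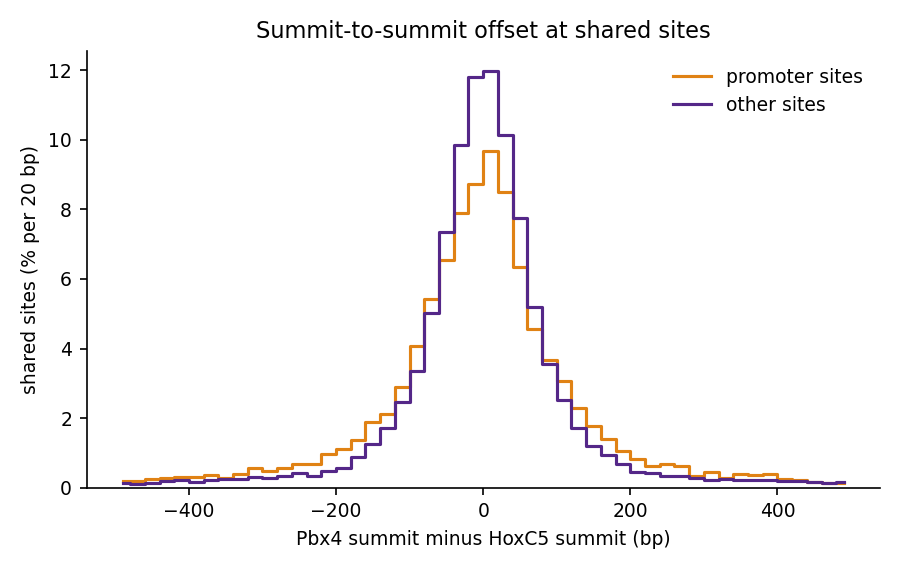
Offset of the Pbx4 summit from the HoxC5 summit along the plus strand (x axis, bp) at shared sites, as percent of sites per 20 bp (y axis), for promoter sites (orange) and all other sites (purple). Both curves centre near 0, and the promoter curve is lower and broader, with medians of the unsigned distance of 65 bp in promoters and 47 bp in introns.

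The 10 shared sites of lowest rank sum were spread unevenly: 5 were on chromosome 8, 3 on chromosome 10, 1 on chromosome 17 and 1 on chromosome 20. Their HoxC5 fold enrichment ranged from 8.41 to 50.9 and that of Pbx4 from 8.60 to 28.6, with summits 9 to 189 bp apart. One lay at a promoter of SP2-DT, a long non-coding RNA gene, where the HoxC5 peak was 1116 bp wide with 25.9-fold enrichment and the Pbx4 peak 648 bp wide with 25.3-fold. Another lay in an intron 7736 bp downstream of a TSS of PVT1, a non-coding RNA gene beside MYC, with folds of 18.0 and 20.9. A further site, in an intron 4448 bp upstream of the nearest TSS of TPD52, a gene named for its protein in tumours, had folds of 13.3 and 19.9. Of these 10 sites, 5 overlapped a peak of HoxC5 in unmodified cells. PC-3 cells have an altered karyotype, and the part of copy number in the order of sites by q was not tested.

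Among HoxC5-only peaks, the lowest q belonged to a site at chr19:14248304-14248613, at a promoter of ADGRL1-AS1, with a fold enrichment of 30.6, and it was 37 in the order of all HoxC5 peaks. A peak at the promoter of SH2D3C, a signalling adaptor gene, had 29.4-fold enrichment with its summit 43 bp upstream of the TSS. An intronic peak 2009 bp downstream of a TSS of APP, the gene of the amyloid precursor protein, had 25.2-fold enrichment, and one 2306 bp upstream of APMAP had 16.7-fold. Among Pbx4-only peaks, the site of lowest q was 3 in the order of all Pbx4 peaks, a 2106 bp interval at chr21:47234086-47236191 in an intron, with PCBP3-AS1 as the gene of nearest TSS, with a fold enrichment of 54.2, the highest of any Pbx4 peak. The next were in an intron with the TSS of TESC-AS1 nearest (35.5-fold), at a promoter of the non-coding LINC02331 (16.6-fold), in an intron with the TSS of MAL2 nearest, which encodes a protein of apical membrane transport (21.7-fold), and in an intron 1443 bp from a TSS of AHCTF1, a nuclear pore assembly gene (30.9-fold).

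The AP-1 word was the most frequent of the 22 words sought under the summits of all 4 groups, though not under those of HoxC5-only promoters. Words were sought on both strands within 50 bp of each summit, and windows of the same length 1 kb to the right served as the flank. A match describes letters and is not evidence of binding by a factor. The AP-1 word was under 26.7% (26.3 to 27.1%) of shared HoxC5 summits and 24.4% of shared Pbx4 summits, against 1.79% and 1.72% of flanks. It was under 16.1% of Pbx4-only summits (flank 1.83%) and 7.51% of HoxC5-only summits (flank 1.54%). Away from promoters, over 5 kb from any TSS, the order was the same, with 29.5% of shared HoxC5, 16.8% of Pbx4-only and 13.3% of HoxC5-only summits. In HoxC5-only promoters the word was under 2.41% of summits against 1.22% of flanks. The share followed peak strength: over 5 kb from a TSS, 34.8% of shared HoxC5 summits in the quintile of lowest q of the whole HoxC5 list held it and 21.9% in the quintile of highest. The word lay a median of 31 bp from shared HoxC5 summits and 35 bp from shared Pbx4 summits, against 48 and 50 bp from the centres of the flanks, when 100 bp on either side were searched.

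The joint Hox-Pbx word TGATTGAT was more frequent than in the flank at HoxC5 summits, shared or not, and at shared Pbx4 summits, but not at Pbx4-only summits. It was rare, being under 0.888% (0.804 to 0.979%) of shared HoxC5 summits against 0.336% of flanks, and under 0.604% of HoxC5-only summits against 0.281% of flanks. Shared Pbx4 summits held it in 0.687% against 0.324% of flanks. Under Pbx4-only summits it was no more frequent than in the flank, at 0.382% against 0.392%, and in HoxC5-only promoters it stood at 0.184% against 0.213%. Over 5 kb from a TSS, it was under 1.12% of HoxC5-only summits (flank 0.378%), and under 3.59% (22 of 613, 2.26 to 5.38%) of those that fell in the quintile of lowest q of the whole HoxC5 list. Of Pbx4-only summits in the quintile of lowest q of the whole Pbx4 list, 0.312% held it. The word also sat nearer to HoxC5 summits, a median of 22.5 bp from shared HoxC5 summits with 30.2% within 10 bp, against 34.5 bp and 16.9% for shared Pbx4 summits and 44.5 bp and 14.2% for Pbx4-only summits. TGATTTAT, the word at the site near TGM2, was under 0.831% of shared HoxC5 summits against 0.669% of flanks, and under 0.327% of HoxC5-only summits against 0.507% of flanks. It was under 1.02% of shared Pbx4 summits (flank 0.724%) and 0.870% of Pbx4-only summits (flank 0.795%). TGATTAAT was under 0.974% of shared HoxC5 (flank 0.413%), 0.456% of HoxC5-only (0.318%), 0.852% of shared Pbx4 (0.397%) and 0.627% of Pbx4-only summits (0.462%). The plain Hox word TAATTA was less frequent at the summit than in the flank in all 4 groups, at 2.06% against 3.85% for shared HoxC5, while TAATGA was more frequent, at 9.49% against 6.15%.

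The Pbx-Meis word was more frequent than in the flank at Pbx4 summits, shared or not, and not at HoxC5-only summits. TGATTGACA was under 0.226% of Pbx4-only summits against 0.0702% of flanks and under 0.0184% of HoxC5-only summits against 0.0553% of flanks, where 4 peaks held it. It was most frequent in shared Pbx4 promoters, under 0.697% of summits against 0.0734% of flanks. The Meis word TGACAG, which is part of TGATTGACA where a G follows, was under 10.4% of Pbx4-only (flank 6.46%), 10.2% of shared Pbx4 (6.50%), 8.93% of shared HoxC5 (6.37%) and 5.67% of HoxC5-only summits (5.85%). Its direction in HoxC5-only peaks was not stable: over 5 kb from a TSS it was more frequent at the summit, at 7.64% against 6.33%.

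HoxC5-only promoters held words of general promoter factors. CCCCGCCC (SP and KLF proteins) was under 11.1% of their summits against 2.48% of flanks, CCGGAAG (ETS proteins) under 7.62% against 0.736%, TGACGTCA (CREB and ATF proteins) under 1.20% against 0.0678% and AAGATGGCG (YY1) under 1.18% against 0.116%. Shared HoxC5 promoters held them too, with CCCCGCCC under 4.75% against 1.77%, CCGGAAG under 4.00% against 0.663% and TGACGTCA under 0.782% against 0.0474%. In Pbx4-only promoters the first pair stood at 1.19% against 1.41% and 0.665% against 0.701%. AGGGGGCG, part of the CTCF site, was under 5.22% of HoxC5-only promoter summits (flank 0.930%), and over 5 kb from a TSS under 1.71% of HoxC5-only (flank 0.101%), 0.176% of shared HoxC5 and 0.0233% of Pbx4-only summits. AGGGGGCG and CCCCGCCC can share bases when read from opposite strands. Base composition moved with these words: the median G+C content within 50 bp of the summit was 65.3% in HoxC5-only promoters, 52.5% in shared HoxC5 promoters and 43.6% in Pbx4-only promoters, and 5 or more CpGs were present in 76.9%, 36.5% and 6.16% of them. The part of base composition in the word counts and in the peak calls was not tested. Other words were more frequent at the summit than in the flank in both lists: TGTTTAC (forkhead proteins) was under 3.65% of shared HoxC5 (flank 1.54%), 3.78% of Pbx4-only (1.52%) and 1.64% of HoxC5-only summits (1.26%), and GGAATG (TEAD proteins) under 10.6% (5.58%), 11.1% (5.56%) and 5.70% (5.25%). Over 5 kb from a TSS, HoxC5-only summits held TGTTTAC in 2.63% (flank 1.58%) and GGAATG in 7.06% (flank 5.09%).

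Among the 20098 protein-coding genes, HoxC5 was found at more promoters than Pbx4 although its list was shorter. A HoxC5 summit lay within 1 kb of a TSS of 11076 genes (55.1%), a Pbx4 summit at 8457 (42.1%) and both at 6901 (34.3%). Any annotated TSS of a gene counted, so a gene with more starts had more windows. The part of this in the shares of the gene lists below was not tested. HoxC5 without Pbx4 was at 4175 promoters, Pbx4 without HoxC5 at 1556, and neither at 7466. Of genes with HoxC5, 62.3% also had Pbx4, and of genes with Pbx4, 81.6% also had HoxC5. These counts follow the Pbx4 list: at equal list length Pbx4 was at 3925 promoters and both factors at 3323, and at a fold of at least 5 in both lists both were at 4016. The order of the factors turned with a wider window: within 5 kb of a TSS, 12953 genes had HoxC5 and 13106 had Pbx4.

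Housekeeping genes were the clearest case of HoxC5 without Pbx4. Of 78 cytosolic ribosomal protein genes, 75 had a HoxC5 promoter summit (96.2%, all genes 55.1%) and 29 had Pbx4 (37.2%, all genes 42.1%). HoxC5 alone was at 47 of them, against 20.8% of all genes. RPL38 had a HoxC5 peak with 12.98-fold enrichment, 801 in the HoxC5 order, and no Pbx4 summit in its promoter. Peaks of both factors named for a gene can lie at different starts of it. RPL22 had an 18.3-fold HoxC5 peak, 815 in order, beside a 2.86-fold Pbx4 peak that was only 134760 in the Pbx4 order. The RPL37 and RPL35A promoters had HoxC5 folds of 15.3 and 12.3 and Pbx4 folds of 7.31 and 6.24, and the RPL37 peaks did not overlap. Of 57 mitochondrial respiratory chain genes, 51 had HoxC5 (89.5%), 20 Pbx4 (35.1%) and 33 HoxC5 alone (all genes 20.8%). NDUFS8, a complex I subunit, had a 14.4-fold HoxC5 peak and no Pbx4 in its promoter, and NDUFV2, another, had a 13.7-fold Pbx4 peak and a 4.68-fold HoxC5 peak. Core histone genes carried both factors more often, with 34 of 46 matched genes for HoxC5 (73.9%), 29 for Pbx4 (63.0%) and 27 for both (58.7%, all genes 34.3%). H4C3 had HoxC5 at 18.1-fold and Pbx4 at 7.33-fold. Neighbouring histone genes can share a peak, so these are not independent sites.

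Genes of cell adhesion and of the Hippo pathway had both more often than all genes did (34.3%). Of 23 integrin and laminin genes, 22 had HoxC5 (95.7%, all genes 55.1%) and 18 Pbx4 (78.3%, all genes 42.1%), and each of the 18 also had HoxC5. ITGA3, ITGB1 and LAMB3 were among them, and LAMC3 had neither. ITGA3, which encodes the α3 integrin chain, had a 16.5-fold HoxC5 peak and a 6.36-fold Pbx4 peak, which did not overlap. ITGB6 had peaks of 4.83-fold for HoxC5 and 20.1-fold for Pbx4. Of 21 YAP-TEAD genes, 20 had HoxC5 (95.2%), 17 Pbx4 (81.0%) and 16 both (76.2%). YAP1, the coactivator of the pathway, had 18.1-fold HoxC5 and 17.4-fold Pbx4 peaks over the same start, and ANKRD1, a YAP target, had 22.8-fold and 23.7-fold peaks. WWTR1, which encodes TAZ, had 15.01-fold and 8.71-fold peaks, and both overlapped a peak of unmodified cells. NF2 had Pbx4 alone.

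The TGF-β list had HoxC5 at 30, Pbx4 at 24 and both at 21 of 38 genes (78.9%, 63.2% and 55.3%, against 55.1%, 42.1% and 34.3% of all genes). Among ligands, INHBA had peaks of 20.4-fold and 14.1-fold. TGFB2 had peaks of 5.69-fold for HoxC5 and 9.77-fold for Pbx4 that did not overlap, while TGFB1 had HoxC5 alone and BMP7 Pbx4 alone. Among receptors, TGFBR2 had a HoxC5 peak of 9.81-fold and a Pbx4 peak of 18.8-fold at another of its start sites. BMPR1A and BMPR2 had both, in lowest-q promoter peaks that did not overlap, and TGFBR1 had Pbx4 alone. Among signal carriers, SMAD1 and SMAD3 had both, SMAD2 HoxC5 alone, SMAD5 Pbx4 alone and SMAD4 neither. LTBP1, which holds latent TGF-β in the matrix, had promoter peaks of 20.6-fold for HoxC5 and 18.4-fold for Pbx4 at different starts. Along its 453 kb and the 5 kb upstream, it held 20 shared and 32 Pbx4-only summits.

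Genes of the factors' own families had peaks in part. Of 39 HOX genes, 21 had HoxC5 (53.8%), 17 Pbx4 (43.6%) and 15 both (38.5%), close to the shares of all genes. The clusters differed: 9 of 11 HOXA genes had HoxC5 and 7 Pbx4, against 6 and 4 of 10 HOXB genes, 6 and 5 of 9 HOXC genes, and 0 and 1 of 9 HOXD genes. This split by cluster was made after the values were seen. The HOXA cluster held 55 HoxC5 summits over 107 kb, of which 33 were HoxC5-only, and 31 Pbx4 summits. HOXA9 had a 13.8-fold HoxC5 peak over a 4.78-fold Pbx4 peak. HOXA11 had a 7.74-fold HoxC5 peak and, not overlapping it, a 12.2-fold Pbx4 peak. Of 18 TALE genes, 10 had HoxC5 (55.6%), and 7 of these had Pbx4 as well (38.9%), among them MEIS2, PKNOX1 and TGIF1. At MEIS2 the lowest-q promoter peaks of the factors did not overlap. No TALE gene had Pbx4 alone, and the shares were near those of all genes (55.1% for HoxC5, 42.1% for Pbx4 and 34.3% for both). The promoter of PKNOX1, which encodes a Pbx partner, held the Pbx4 peak of lowest q in the whole list, at chr21:44394555-44394973 with a fold enrichment of 44.4 and a −log10 q of 193.3, over a HoxC5 peak of 10.5-fold that was 9132 in the HoxC5 order. PKNOX2 was alike, with 15.5-fold for Pbx4 and 5.26-fold for HoxC5. PBX2 had HoxC5 alone, and PBX4 and MEIS3 had neither in their promoters.

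AP-1 genes had equal counts, with HoxC5 at 12, Pbx4 at 12 and both at 10 of 17 (70.6%, 70.6% and 58.8%, against 55.1%, 42.1% and 34.3% of all genes). JUN had HoxC5 at 6.38-fold and Pbx4 at 12.3-fold, ATF3 had 12.6-fold and 9.74-fold, and FOSL1, which encodes Fra-1, 6.19-fold and 4.49-fold. BATF had Pbx4 alone at 11.97-fold, JUND had HoxC5 alone and FOS neither. Of 24 class I HDAC and corepressor genes, 20 had HoxC5 (83.3%), 16 Pbx4 (66.7%) and 14 both (58.3%). TBL1X, a subunit of the NCoR complex, had 14.8-fold and 16.4-fold peaks. HDAC1 and HDAC2 had both, in lowest-q promoter peaks that did not overlap, NCOR1 had Pbx4 alone and HDAC3 neither. Forkhead genes were near the background or below it, with HoxC5 at 18 (54.5%), Pbx4 at 11 (33.3%) and both at 10 of 33 (30.3%). FOXL1 had a 22.3-fold HoxC5 peak, 277 in order, over a 4.65-fold Pbx4 peak. FOXA1, a luminal pioneer factor, had 9.81-fold and 11.5-fold peaks that did not overlap.

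Genes of blood and liver had the fewest. Marker lists are a weak check of the labelled cell line, since peaks do not measure expression. Against 55.1% of all genes with HoxC5 and 42.1% with Pbx4, 10 of 12 epithelial markers had HoxC5 and 10 had Pbx4 (83.3% each). Of 12 blood markers, 0 had HoxC5 and 2, PTPRC and CD34, had Pbx4, and of 12 liver markers TTR had HoxC5 and FGB had Pbx4. Of 13 neuronal markers 6 had HoxC5 (46.2%) and 4 Pbx4 (30.8%). Of 11 prostate luminal markers, 4 had HoxC5 (36.4%) and 5 Pbx4 (45.5%), so these were below all genes for HoxC5 and near them for Pbx4.

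**Figure D4:**
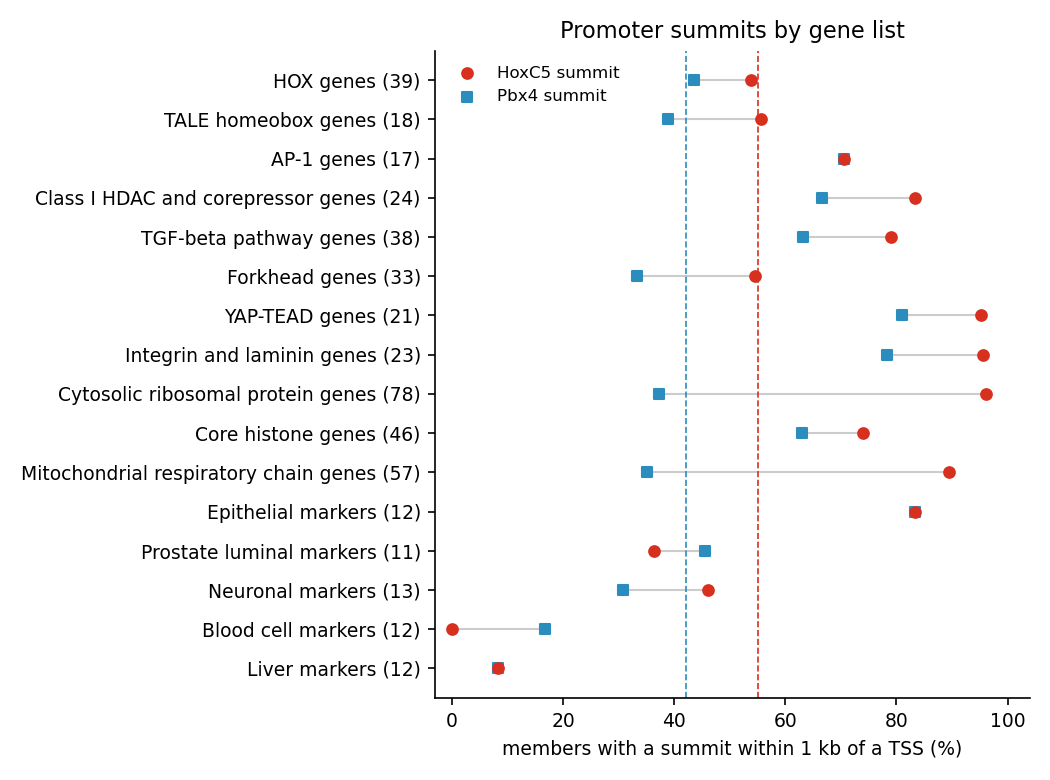
Percent of the matched members of each gene list (y axis, number of matched genes in brackets) with a HoxC5 summit (red circles) or a Pbx4 summit (blue squares) within 1 kb of a TSS (x axis). Dashed lines mark all protein-coding genes, 55.1% for HoxC5 and 42.1% for Pbx4. Ribosomal protein and respiratory chain genes have HoxC5 at 96.2% and 89.5% and Pbx4 at 37.2% and 35.1%.

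Some promoters had only a single factor even in their surroundings. A HoxC5 promoter summit with no Pbx4 summit within 5 kb of any TSS was found at 1888 genes (9.39%), and the reverse at 1022 (5.09%). The HoxC5 peaks of lowest q in the former group were at MBTPS2, a protease gene of cholesterol sensing (25.97-fold), EIF2D, a translation factor gene (13.7-fold), the start shared by SARS2 and MRPS12, both of mitochondrial translation (19.0-fold), and LRRC37A3 (13.4-fold). The Pbx4 peaks of lowest q in the latter group were at ABCA7, a lipid transporter gene (29.4-fold), SIX3, a homeobox gene of the forebrain (26.7-fold), PSKH2 (16.9-fold), KCNJ10, a potassium channel gene (23.5-fold), and WFDC6 (21.0-fold).

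Counted from 5 kb upstream of each gene to its end, the largest numbers of unshared sites were in long genes. MACROD2, which spans 2058 kb, held 153 Pbx4-only, 54 shared HoxC5 and 8 HoxC5-only summits. RUNX1 held 109 Pbx4-only summits, NPAS3 and RAD51B 98 each and KAZN 93. This is 7.44 to 11.1 per 100 kb of gene length over these 5 genes. HoxC5-only summits numbered 20 in KCNMA1, 17 in HIVEP3, 15 in BCOR, 15 in PRKAG2 and 14 in CSMD3. BCOR, a corepressor gene of 128 kb, had 11.8 per 100 kb of gene length, the highest density of these 5 genes, with 2 shared and 12 Pbx4-only summits. KCNMA1 held 55 shared summits.

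Peaks over the genes used for overexpression were also looked at, since transgene reads can map to exons. HOXC5 had 1 HoxC5 peak, of 4.44-fold, 44698 in order, which covered 29.3% of its exon bases, and no Pbx4 peak over the gene. PBX4 had 13 Pbx4 peaks, of 2.50-fold to 20.0-fold, which covered 16.8% of its exon bases, and 2 HoxC5 peaks that covered 0 exon bases. Neither gene had a peak in unmodified cells, and the part of transgene reads in these peaks was not tested. The peak of highest fold in PBX4, at chr19:19716774-19717313, lay over a HoxC5 peak of 5.11-fold.

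HoxC5 sites of unmodified cells lay mostly where both overexpressed factors did. Of the 2555 merged intervals of the 2 endogenous libraries, 62.1% (60.2 to 64.0%) overlapped peaks of both lists, 14.5% of HoxC5 only, 9.16% of Pbx4 only and 14.2% of neither. Of shared HoxC5 peaks 3.53% (3.36 to 3.70%) overlapped an endogenous peak, of HoxC5-only peaks 1.60% (1.44 to 1.78%) and of Pbx4-only peaks 0.198% (0.172 to 0.226%). Outside promoters the shares were 3.38% of shared and 0.633% of HoxC5-only peaks, and within promoters 4.18% and 2.67%. In the decile of HoxC5 peaks with the lowest q they were 10.9% (10.2 to 11.7%) and 6.65% (4.65 to 9.17%). These values rest on endogenous replicate 1, since without it, replicate 2 with its 170 peaks gave 0.286%, 0.0691% and 0.00729%.

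HoxC5 peaks were shared least on chromosome 19 (47.9%), followed by chromosomes 22 (54.2%) and 16 (56.3%), and most on chromosome 8 (74.8%). There were 1.34 Pbx4 peaks per HoxC5 peak on chromosome 19 and 3.13 on chromosome 2. Chromosome X had the fewest peaks per assembled Mb, with 12.1 of HoxC5 and 28.0 of Pbx4. PC-3 cells have an altered karyotype, and the part of copy number in these densities was not tested.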

How the data were processed

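ChIP-Seq peaks of 2 libraries were compared, 1 of HoxC5 and 1 of Pbx4, each from PC-3 cells overexpressing that factor, with 2 libraries of endogenous HoxC5 beside them. Per the study's methods, reads were aligned to hg19 by BWA-MEM, filtered on mapping quality and duplication, and given to MACS2, 1 list per library, with peaks kept to a q value of 0.05. The control for each call and the MACS2 version are not given in the sources used here. For every peak the deposited file holds the interval, the summit, the fold enrichment as a ratio over local background, the p value and the q value, both as −log10, and a score that the authors' caller made from q. Folds of the lists come from separate calls, so they are given side by side as values and read as stronger or weaker only within a list.

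Peaks outside chromosomes 1 to 22 and X were left out, 27 of HoxC5 and 69 of Pbx4. Shared sites paired each HoxC5 peak with the overlapping Pbx4 peak of nearest summit. TSSs, exons and genes came from GENCODE 44 lifted to GRCh37, which is the build hg19, and words and sequences from the GRCh37 genome. Gene list members were matched by symbol, and H2BC7, H2BC8, H4C2 and H4C6 found no match. Shares carry exact Clopper-Pearson intervals at 95%, which cover counting error only, and the depth of each library is unknown.

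The members, the gene lists and the words were chosen with earlier results of these data known. Sites and genes were named by a rule: the 10 shared sites of lowest rank sum by q, the 5 unshared peaks of lowest q in each list, HOXC5 and PBX4, up to 4 members of each gene list with the promoter peak of best rank, 5 genes with the most unshared summits of each kind and 5 with a promoter summit of a single factor. Sequences were those of the first 4 shared sites of each kind by rank sum, with chromosome 8 left out. Genes named with no value, HOX clusters and the order of chromosomes were chosen after their values were seen. Some genes that this rule names are not reported here. Counting steps were tested on simulated intervals with known overlaps. Alternatives were stricter q and fold filters, a Pbx4 list of equal length, other overlaps, distances, TSS sets, word windows and flanks, and each endogenous replicate left out. The tools were Python 3.11.15, pandas 2.3.3, numpy 2.4.6, pysam 0.24.0, scipy 1.17.1 and matplotlib 3.10.9.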

Additional observations from a re-analysis of the deposited data

Results flagged for a closer look

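The lists held signal outside the chromosomes compared: 27 HoxC5 peaks, of which 3 were on chromosome Y and 24 on unplaced sequences, and 69 Pbx4 peaks, of which 6 were on chromosome Y and 63 on unplaced sequences. They were noted because no comparison above used them, and with no control list a count above 0 is all that could be asked.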

How the results depend on the processing

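Of 91 alternative values over 21 results, 36 stayed within the counting interval (for gene counts, within 1.5 times) and 55 moved. A reversal could be scored only for word excesses over the flank, and none whose interval excluded 0 reversed. The excesses of TGACAG in HoxC5-only peaks and of TGATTGAT in Pbx4-only peaks, whose intervals held 0, changed sign between settings. Other results could only stay or move. Among them, the order of the factors by gene count turned within 5 kb (HoxC5 12953, Pbx4 13106). The share of HoxC5 peaks on Pbx4 peaks, 67.7%, was 67.2% at a q of at most 0.01, 63.8% at 1e-05, 60.5% at a fold of at least 5, 47.7% with the Pbx4 list shortened to equal length, 37.2% with 50% overlap of both intervals, 50.2% with summits within 100 bp and 60.3% with every peak set to 100 bp on either side of its summit. For the share of Pbx4 peaks, 28.5%, the same settings from 1e-05 on gave 30.5%, 25.99%, 45.1%, 16.3%, 21.97% and 26.3%. The promoter share of shared HoxC5 summits was 16.3% at 1e-05, 14.7% at a fold of 5, 13.7% with the shortened list, 14.02% within 500 bp, 40.0% within 5 kb and 11.4% with protein-coding TSSs. That of HoxC5-only summits was 44.6%, 42.2%, 40.9%, 40.8%, 63.4% and 39.8%, and that of Pbx4-only summits was 9.34% with the shortened list and 5.72%, 33.5% and 4.26% under the last 3 settings. HoxC5-only peaks had the higher promoter share under each of these. The median summit distance was 48 bp at 1e-05, 46 bp at a fold of 5, 48 bp with the shortened list and 47 bp for peaks with a single partner. Genes with Pbx4 numbered 3925 with the shortened list and 13106 within 5 kb, and genes with both 4016 at a fold of 5, 3323 with the shortened list and 10691 within 5 kb. Separate settings widened the word window to 100 bp on either side or kept to summits over 5 kb from a TSS. In this order, the AP-1 excess over the flank was 34.4 and 27.7 percentage points for shared HoxC5 peaks. It was 7.82 and 11.3 for HoxC5-only, and 21.9 and 14.9 for Pbx4-only peaks. For TGATTGAT, HoxC5-only peaks over 5 kb from a TSS had an excess of 0.744 points and Pbx4-only peaks in the wider window one of -0.0574. For TGACAG, shared HoxC5 peaks had 3.06 and 2.89 points, HoxC5-only peaks -1.26 and 1.31, and Pbx4-only peaks 5.50 in the wider window and 4.26 with the left flank. Leaving out 1 endogenous replicate gave overlaps of 0.286 to 3.47% for shared HoxC5, 0.0691 to 1.60% for HoxC5-only and 0.00729 to 0.195% for Pbx4-only peaks, the low values without replicate 1. The cause of these changes was not tested, other than that shortened lists and narrower windows hold fewer peaks by construction. No paired analysis was possible because each overexpressed condition has 1 library and no test was made. The depth of each library is unknown, so it cannot be said how many weaker sites either list misses.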
